A study of Mus musculus with 6 samples.

Results

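The genes that carry a long-chain fatty acid from the plasma into the mitochondrial matrix were examined in hearts with a deletion of Mrps5, whose product is part of the mitochondrial ribosome. They were Cd36, Slc27a1, Fabp3, Fabp4, Fabp5, Acsl1, Cpt1a, Cpt1b, Cpt2 and Crat, taken by gene name as a fixed list of 10 of the 54532 genes measured. RNA was sequenced from the heart tissue of 6 mice, all of which carried Mrps5 fl/fl alleles and were given tamoxifen at 45 mg/kg/day for 5 days from 8 weeks of age. The 3 Ctrl mice had the floxed alleles alone, and the 3 cKO mice carried in addition MCM, the MerCreMer recombinase driven in cardiomyocytes by the αMHC promoter. Hearts were taken 12 weeks after tamoxifen, and the study's methods describe the tissue as ventricular and the mice as littermates. The methods also give the age of the mice as 12 weeks, which the schedule in the labels does not allow, and the labels are followed here. Because MCM was carried by cKO mice only, the presence of the transgene and the loss of Mrps5 cannot be told apart.

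The adult heart takes most of its energy from fatty acids. Lipoprotein lipase on the capillary wall frees them from circulating triglyceride, and the scavenger receptor CD36 and the transport protein FATP1 (Slc27a1) help them across the membranes of endothelial cells and cardiomyocytes. Inside the cell, fatty acid binding proteins (FABP) hold them in solution and the long-chain synthetase ACSL1 joins them to coenzyme A. The acyl group is then moved to carnitine by carnitine palmitoyltransferase 1 (Cpt1a, the liver type, and Cpt1b, the muscle type) on the outer mitochondrial membrane, exchanged across the inner membrane, and moved back to coenzyme A by carnitine palmitoyltransferase 2. Carnitine acetyltransferase (Crat) does the same for short acyl groups and lets acetyl groups leave the matrix. Cd36, Fabp4 and Fabp5 are known as genes of the capillary endothelium as well as of fat cells and macrophages, and Cd36 also of the cardiomyocyte. Fabp3 is the FABP of the cardiomyocyte.

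Most of the pathway was lower in cKO hearts, and its most abundant transcript was not. Of the 10 genes, 7 were lower in cKO at an adjusted p under 0.05 (limma on log2(FPKM + 1), where FPKM counts fragments relative to gene length and sequencing depth), against 17.0% of the 12944 genes tested. None of the 10 was higher, against 16.3% of genes tested. The 7 were Cd36, Slc27a1, Fabp4, Fabp5, Acsl1, Cpt2 and Crat, at 53.0% to 71.7% of the Ctrl mean. Fabp3, Cpt1a and Cpt1b did not pass the threshold. In 8 of the 10, the 7 and Cpt1b, every cKO heart was below every Ctrl heart, against 26.4% of genes tested. The median log2 fold change was -0.55 over the 10 genes and -0.02 over all genes tested. All 10 passed the filter on low values.

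**Figure D1:**
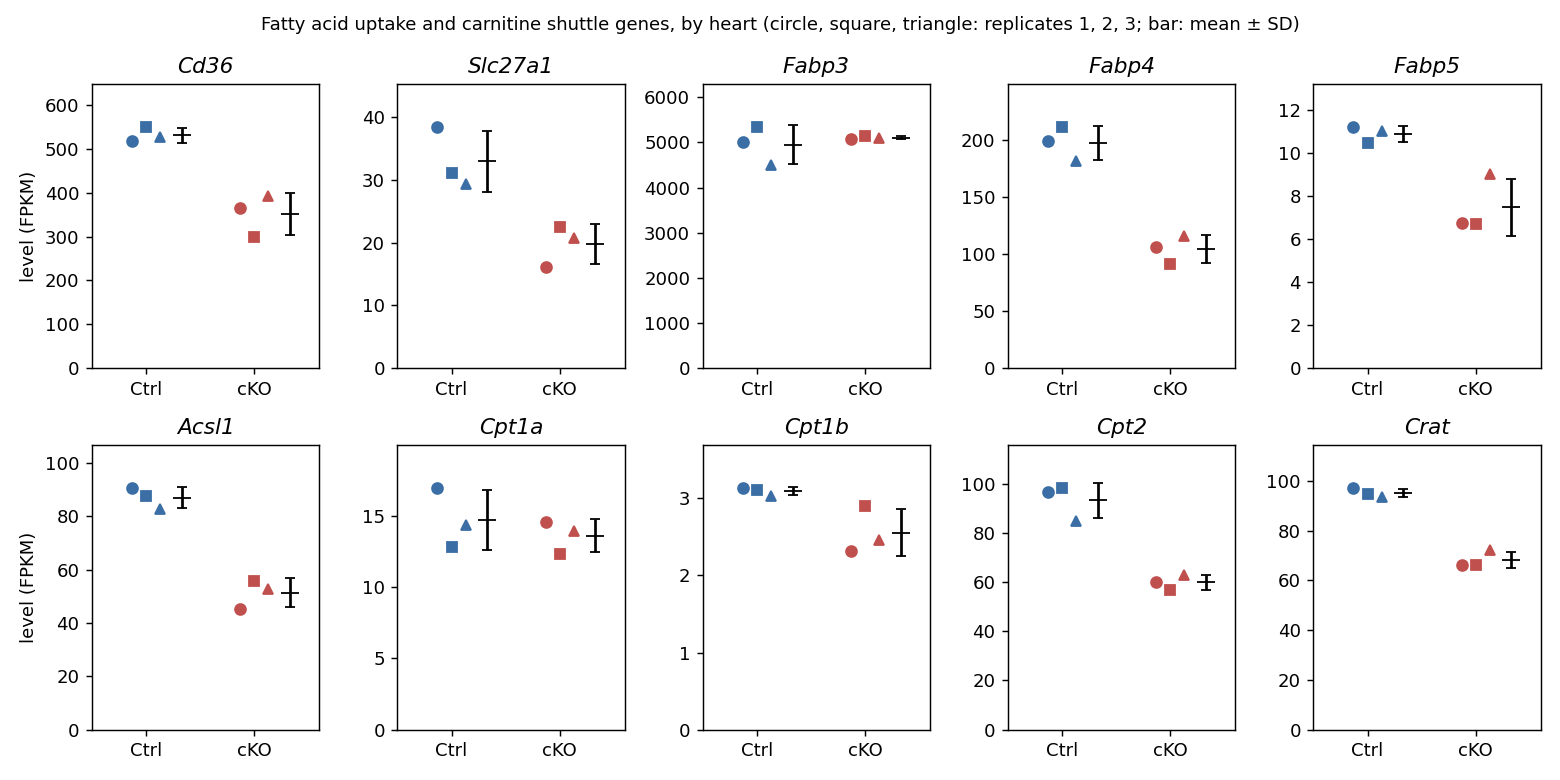
Level of each of the 10 genes in each heart (y axes, FPKM from 0, a scale of its own per gene) in Ctrl (blue) and cKO (red), with the circle, square and triangle for replicates 1, 2 and 3 and the black bar for the mean ± SD of 3 hearts. The groups overlap for Fabp3 and Cpt1a only, and Fabp4 shows the widest gap in proportion to its level.

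The genes lie on 7 chromosomes (coordinates as deposited, which correspond to GRCm38). Cd36 is at chr5:17781690-17888801 on the minus strand, Slc27a1 at chr8:71568882-71587302 and Acsl1 at chr8:46471037-46536051 on the plus strand. Fabp4 (chr3:10204088-10208576, minus) and Fabp5 (chr3:10012548-10016607, plus) are both on chromosome 3, and Fabp3 is at chr4:130308595-130315463 on the plus strand. Cpt1a is at chr19:3323301-3385732 (plus), Cpt1b at chr15:89416405-89425863 (minus), Cpt2 at chr4:107903981-107923610 (minus) and Crat at chr2:30400471-30415813 (minus).

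Promoter sequence is shown for 2 of the genes that were lower, Acsl1 and Slc27a1, and for 2 that did not pass, Cpt1a and Fabp3, so that the start regions of genes with different behaviour can be set side by side. Each window runs from 250 bases before to 50 bases after a transcription start of RefSeq (build GRCm38.p6, plus strand in all 4), at chr8:46470787-46471086 for Acsl1, chr8:71568621-71568920 for Slc27a1, chr19:3323051-3323350 for Cpt1a and chr4:130308488-130308787 for Fabp3. Capitals mark matches, on either strand, to the motifs AGGTCA (a nuclear receptor site), GGGCGG (the GC box bound by SP factors), CCACCC (bound by KLF factors), CACGTG (the E-box) and TGATGNAA (a C/EBP-ATF element).
Acsl1: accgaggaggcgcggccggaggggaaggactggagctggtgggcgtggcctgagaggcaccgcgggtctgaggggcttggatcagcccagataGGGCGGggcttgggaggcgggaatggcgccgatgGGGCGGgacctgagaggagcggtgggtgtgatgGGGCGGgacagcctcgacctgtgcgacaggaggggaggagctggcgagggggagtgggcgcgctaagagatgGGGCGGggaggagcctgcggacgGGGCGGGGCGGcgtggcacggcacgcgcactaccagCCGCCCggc
Slc27a1: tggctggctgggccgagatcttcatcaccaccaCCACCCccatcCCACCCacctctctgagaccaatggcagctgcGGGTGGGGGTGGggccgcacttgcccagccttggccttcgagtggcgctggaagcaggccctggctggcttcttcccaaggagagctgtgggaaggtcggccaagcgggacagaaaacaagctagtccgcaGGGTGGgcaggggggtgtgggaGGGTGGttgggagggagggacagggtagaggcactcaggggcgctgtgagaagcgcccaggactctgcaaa
Cpt1a: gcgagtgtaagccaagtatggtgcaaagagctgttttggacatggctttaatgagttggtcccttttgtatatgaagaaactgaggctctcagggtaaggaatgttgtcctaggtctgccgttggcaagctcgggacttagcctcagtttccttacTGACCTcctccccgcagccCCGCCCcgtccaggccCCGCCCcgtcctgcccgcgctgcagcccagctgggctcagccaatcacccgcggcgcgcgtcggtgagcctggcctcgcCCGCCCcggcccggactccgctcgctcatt
Fabp3: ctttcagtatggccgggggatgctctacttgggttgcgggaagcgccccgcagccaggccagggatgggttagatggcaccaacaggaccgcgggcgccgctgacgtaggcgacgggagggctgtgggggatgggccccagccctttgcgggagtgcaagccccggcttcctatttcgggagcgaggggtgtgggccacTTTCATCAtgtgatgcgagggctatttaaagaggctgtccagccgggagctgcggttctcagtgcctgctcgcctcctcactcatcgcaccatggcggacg

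RefSeq gave 2 windows for Acsl1 and 3 for Slc27a1, of which the one with the lowest coordinate is shown. The Acsl1 window shown had 7 matches to the GC box and the Cpt1a window 3, and the Slc27a1 window shown had 6 matches to CCACCC and no GC box. The windows of a gene differed among themselves: the other Acsl1 window had 2 matches to CCACCC and no GC box, and the other Slc27a1 windows had 1 and 3 GC boxes and 1 match to CCACCC each. The Cpt1a window also had 1 match to AGGTCA, and the Fabp3 window had 1 match to TGATGNAA and no other. In Acsl1, 2 GC boxes overlap by 1 base. In all there were 9 windows for 6 of the 10 genes (Acsl1, Cd36, Cpt1a, Cpt2, Fabp3 and Slc27a1), and those of Fabp4, Fabp5, Cpt1b and Crat were not analysed here. The PPAR response element, 2 copies of AGGTCA spaced by 1 base (which thus also count as AGGTCA), had no match in the 9 windows, and it has one in only 0.0396% of 32851 promoters. AGGTCA was found in the windows of 2 genes (Cd36 and Cpt1a) and in 16.3% of all promoters. GGGCGG was found in 6 of the 9 windows and 35.7% of promoters, CCACCC in 4 windows and 31.5%, CACGTG in 1 window and 7.15%, and TGATGNAA in 1 window and 3.97%. These are matches of letters and say nothing of binding.

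Both genes of uptake at the membrane were lower in cKO. Cd36, with a level that ranked 93 among the 12944 genes tested in Ctrl, measured 517, 549.7 and 526 FPKM in the Ctrl hearts, against 366, 299.5 and 392 in the cKO hearts (given here and elsewhere in the order of replicates 1, 2 and 3). Each cKO heart was below the lowest Ctrl heart, and cKO replicate 2 was the lowest of the 6. The mean fell from 531 ± 16.7 to 352 ± 47.6 FPKM (SD, n = 3), with a log2 fold change of -0.60 (SE 0.11, limma adjusted p 0.00850).

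Slc27a1 measured 38.4, 31.0 and 29.3 FPKM in Ctrl, against 16.2, 22.5 and 20.7 in the cKO hearts. The Ctrl hearts were led by replicate 1, and the groups did not overlap. This was a log2 fold change of -0.71 (SE 0.15, limma adjusted p 0.0119), and without Ctrl replicate 1 it was -0.60 and still past the threshold. Thus FATP1 mRNA was at 60.1% and CD36 mRNA at 66.3% of Ctrl.

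The FABP genes did not move alike. Fabp3 was the most abundant of the 10 genes, ranking 10 among all genes tested in Ctrl, at 5012, 5339 and 4500.3 FPKM in Ctrl, against 5077, 5149 and 5089 in cKO. The cKO hearts lay within the range of the Ctrl hearts. The means were 4950.4 ± 423 and 5105 ± 39.0 FPKM, and the difference of 0.05 on the log2 scale (95% interval -0.19 to 0.28, limma adjusted p 0.742) did not pass the threshold. An interval of this width leaves room for a change of either sign. Fabp3 shares 161 of its 823 exon bases with Zcchc17 and Gm10570 on the opposite strand, and a processed pseudogene, Fabp3-ps1, looked at after the values were seen, was at 63.4 ± 7.05 FPKM in Ctrl and 55.6 ± 8.01 FPKM in cKO, so that reads could have been split between them.

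Fabp4 changed most among the 10. It was at 199, 211 and 182 FPKM in Ctrl, against 106, 91.6 and 116 in cKO, so that all 3 cKO hearts were well below the Ctrl hearts, with cKO replicate 2 again the lowest. The mean was at 53.0% of Ctrl (log2 fold change -0.91, SE 0.11, limma adjusted p 0.00212).

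Fabp5, far less abundant, was at 11.2, 10.5 and 11.0 FPKM in Ctrl, against 6.74, 6.70 and 9.03 in cKO. No cKO heart reached the Ctrl range, and cKO replicate 3 came nearest. This was a log2 fold change of -0.50 (SE 0.11, limma adjusted p 0.0169) and rested on 407 to 952 reads per heart. The call was lost without Ctrl replicate 1 (adjusted p 0.0550), Ctrl replicate 3 (0.0547) or cKO replicate 1 (0.0504), and with each library scaled to its read total (0.0540).

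Within each heart, Fabp3 therefore made up a larger part of the FABP transcripts in cKO. Its share of the summed FPKM of Fabp3, Fabp4 and Fabp5 was 96.0, 96.0 and 95.9% in Ctrl and 97.8, 98.1 and 97.6% in cKO. The shares of the groups did not overlap, and the difference of 1.89 percentage points had an exact two-sided permutation p of 0.1, the smallest that 3 against 3 hearts allow. The share depends on the gene length used. For Fabp4 the deposited length is 4489 bases, the whole span of the gene, whereas its principal transcript has 896 bases, and for Fabp5 the lengths are 3567 and 987 bases. Per length of the principal transcripts, chosen after the values were seen, the Fabp3 share was 82.8 ± 0.21% in Ctrl and 90.3 ± 1.10% in cKO. On that scale Fabp4, at 989 FPKM in Ctrl, was above Cd36 at 561 FPKM.

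Activation of the fatty acid was represented by Acsl1, the main long-chain acyl-CoA synthetase of the heart. It was at 90.4, 87.7 and 82.6 FPKM in Ctrl, against 45.4, 55.8 and 52.9 in cKO, with a wide gap between the groups. The mean fell from 86.9 ± 3.95 to 51.4 ± 5.40 FPKM, 59.1% of Ctrl (log2 fold change -0.75, SE 0.095, limma adjusted p 0.00249).

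In the carnitine shuttle, Cpt2, of the inner membrane, was lower. Cpt1a and Cpt1b, of the outer membrane, did not pass the threshold, although the Cpt1b values also lay lower in cKO. Cpt2 was at 96.4, 98.0 and 84.9 FPKM in Ctrl, against 60.1, 56.6 and 62.8 in cKO. The lowest Ctrl heart, replicate 3, was above all cKO hearts. The mean was at 64.3% of Ctrl (log2 fold change -0.63, SE 0.085, limma adjusted p 0.00299).

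Cpt1a was at 16.9, 12.8 and 14.4 FPKM in Ctrl, against 14.6, 12.3 and 13.9 in cKO. The groups overlapped, and Ctrl replicate 1 was the highest heart. The difference was -0.099 on the log2 scale (95% interval -0.37 to 0.17, limma adjusted p 0.543). Without Ctrl replicate 1 it was 0.00080, and with each library scaled to its read total it was 0.042, so that no direction can be given for this gene.

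Cpt1b was at 3.13, 3.11 and 3.03 FPKM in Ctrl, against 2.31, 2.90 and 2.45 in cKO, so that the cKO hearts were below the Ctrl hearts, replicate 2 least of all. The log2 fold change of -0.21 (95% interval -0.40 to -0.0076, limma adjusted p 0.101) did not pass. Without cKO replicate 2 it was -0.27 and passed (adjusted p 0.0377). The level of this gene cannot be compared with the others. Of its 3372 exon bases, 2744 also belong to the read-through gene Gm44502 on the same strand, so that 18.6% are its own, and Gm44502 is listed at 0 in all 6 hearts. Cpt1b rested on 132 to 247 reads per heart, and how reads in both genes were counted is not given in the sources used here. The share of Cpt1a in the summed FPKM of Cpt1a and Cpt1b, 82.5 ± 1.97% in Ctrl and 84.1 ± 2.80% in cKO (exact permutation p 0.4), is therefore no measure of the balance between the liver and muscle types.

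Crat was at 97.0, 94.9 and 93.5 FPKM in Ctrl, against 66.2, 66.2 and 72.1 in cKO. The hearts of each group lay close together and far from those of the other group. This was a log2 fold change of -0.48 (SE 0.070, limma adjusted p 0.00369), at 71.7% of Ctrl, the smallest fall of the 7 genes that passed. In Ctrl hearts the levels of Crat, Cpt2 and Acsl1 were neighbours, and those of Cpt2 overlapped with both others. Per length of the principal transcripts Acsl1 (234 FPKM) was above Crat (121 FPKM) and Cpt2 (93.9 FPKM).

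**Figure D2:**
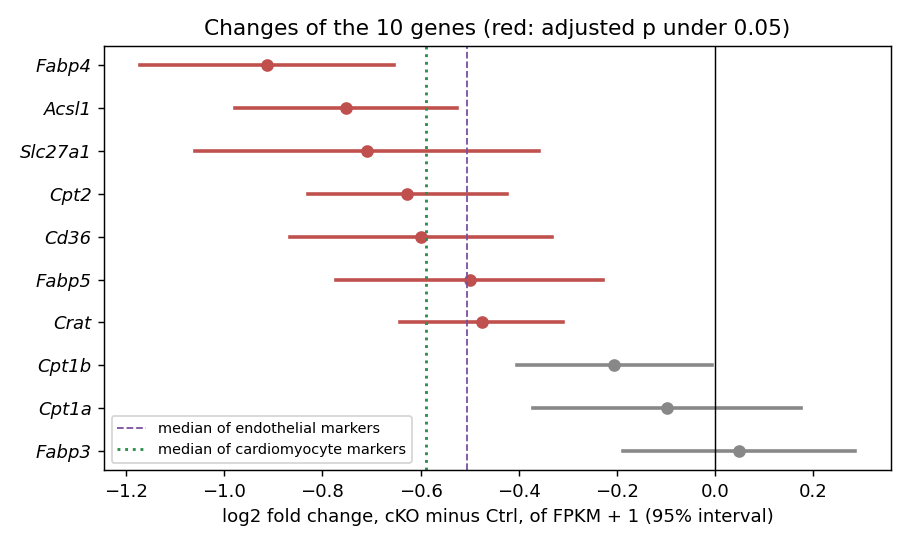
Log2 fold change of FPKM + 1, cKO minus Ctrl (x axis), of the 10 genes, with 95% intervals from limma, red for adjusted p under 0.05 and grey otherwise. The dashed and dotted lines give the median over endothelial markers (-0.50) and over cardiomyocyte markers (-0.59). The intervals of Fabp3 and Cpt1a cross 0 and that of Fabp4 is the farthest from it.

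Ratios within a heart do not depend on how the library is scaled, and they set the genes that fell against those that did not. Relative to Fabp3, Fabp4 was lower by a log2 difference of -0.97, Acsl1 of -0.81 and Cd36 of -0.65. Relative to Cpt1a, Cpt2 differed by -0.53 and Crat by -0.38. In all 5 ratios each cKO heart was below each Ctrl heart, and each had an exact permutation p of 0.1, which is the smallest possible and stays 0.1 after adjustment over the 5. The ratio of Fabp4 to Fabp3 varied least among Ctrl hearts and more among cKO hearts, at -4.65, -4.66 and -4.63 in Ctrl and at -5.58, -5.81 and -5.45 in cKO. These ratios were chosen with the changes of the genes known and describe them.

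**Figure D3:**
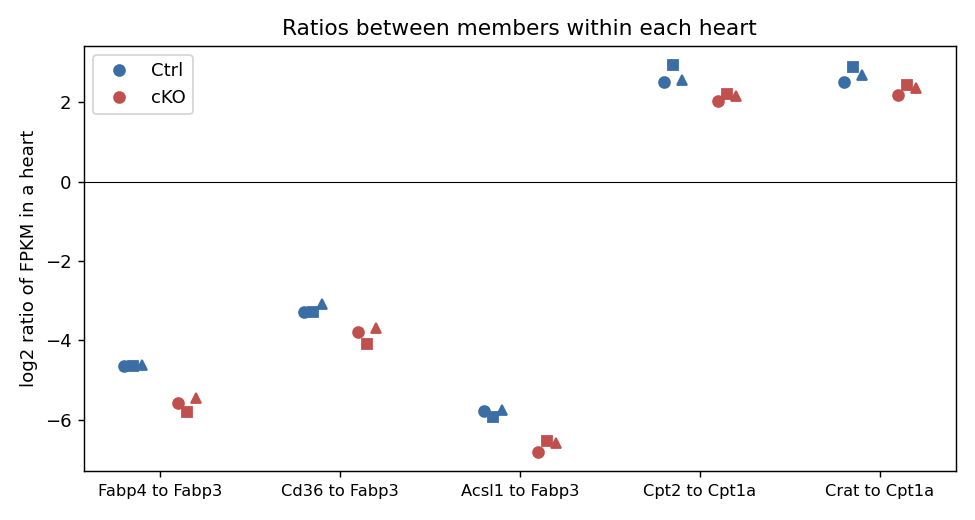
Log2 ratio of FPKM between pairs of genes in each heart (y axis), Ctrl in blue and cKO in red, with the circle, square and triangle for replicates 1, 2 and 3. In each of the 5 ratios the 3 cKO hearts lie below the 3 Ctrl hearts, with differences of means from -0.38 to -0.97.

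The genes around these 10 were followed in 6 lists of 72 genes in all, of which 53 passed the filter. Of the 53, 22 were lower, 9 were higher and 22 were not called, with a median log2 fold change of -0.18. The shares over all genes tested are 17.0% lower and 16.3% higher, so that 9 of 53 higher is near the background. The counts of the single lists below stand against the same shares, and a single higher gene in a list is near them. Some calls depended on the setting. Of the 15 alternatives, Acbd3, Acot1 and Slc25a20 kept theirs in 12, and Angptl4, Zdhhc5, Tcf15 and Prkag1 in 11. Acss1, Acsl5 and Prkab2 kept theirs in 9, Tmlhe in 8 and Lmf1 in 4. The other called genes named from these lists kept theirs in all 15.

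At the capillary, 7 of 13 tested genes were lower and 3 were higher. Among the 7 were Tcf15 (log2 fold change -0.59) and Lmf1 (-0.23, limma adjusted p 0.0458). Both were named after their values were seen, and their calls depended on the setting. Lpl, which encodes lipoprotein lipase, was at 628 ± 29.4 FPKM in Ctrl and 265 ± 42.0 FPKM in cKO (log2 fold change -1.25, limma adjusted p 0.0012). Vldlr, a receptor that binds triglyceride-rich lipoproteins, fell from 46.0 ± 4.64 to 13.9 ± 5.15 FPKM (-1.71). Cav1, which forms caveolae, fell from 66.2 ± 8.39 to 36.6 ± 4.93 FPKM (-0.84). Angptl4, a secreted inhibitor of lipoprotein lipase, was higher, at 3.19 ± 1.28 against 10.9 ± 5.44 FPKM (1.46, adjusted p 0.0224). The other higher genes, named after their values were seen, were Slc27a4 (0.43) and Zdhhc5 (0.33), which encode another fatty acid transport protein and a palmitoyltransferase that acts on CD36. Among other binding proteins 6 of 12 were tested, of which only Acbd3 (0.34) passed. No other FABP gene reached the filter, and Fabp1, Fabp2, Fabp6 and Pmp2 were listed at 0 in all hearts.

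Other acyl-CoA synthetases were lower in 4 of 9 tested genes and higher in 1. Acsm5, a medium-chain synthetase, fell from 3.34 ± 0.21 to 0.39 ± 0.25 FPKM (log2 fold change -1.66, limma adjusted p 0.00080). Acss1, the mitochondrial acetyl-CoA synthetase, fell from 133 ± 11.3 to 88.3 ± 20.2 FPKM (-0.61), Acsl6 from 1.499 ± 0.036 to 0.77 ± 0.069 FPKM (-0.50) and Acsl3 from 1.65 ± 0.13 to 0.92 ± 0.17 FPKM (-0.47). The 1 that rose was Acsl5, named after its value was seen, from 3.08 ± 0.20 to 4.35 ± 0.64 FPKM. Of 8 tested thioesterases, which split acyl-CoA again, 2 were lower, 2 were higher and 4 were not called. The shares over all genes tested are 17.0% lower and 16.3% higher, so that these calls are near the background. Acot2, which acts in the mitochondrial matrix, rose from 37.7 ± 10.2 to 92.3 ± 15.9 FPKM (1.29, adjusted p 0.0050) and Acot9 from 9.13 ± 0.25 to 19.3 ± 2.60 FPKM (1.00). Acot1 fell from 5.06 ± 2.12 to 2.12 ± 0.46 FPKM (-0.92) and Acot13 from 305 ± 20.3 to 229.5 ± 9.83 FPKM (-0.41). Acot1 and Acot2 are close paralogs whose reads could be split between them by the counting, so that their opposite values are uncertain.

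Of the carnitine genes, 5 of 7 tested were lower and 1 was higher. Slc25a20, the carrier that exchanges acylcarnitine for carnitine between CPT1 and CPT2, fell from 44.4 ± 3.09 to 33.4 ± 3.33 FPKM (log2 fold change -0.40, limma adjusted p 0.0201). The carnitine transporter of the plasma membrane, Slc22a5, fell from 10.4 ± 0.52 to 7.02 ± 0.86 FPKM (-0.51), and its relative Slc22a4, which also transports ergothioneine, rose from 2.13 ± 0.26 to 11.6 ± 3.06 FPKM (1.98, adjusted p 0.0010). Aldh9a1, an enzyme of carnitine synthesis, fell by 0.96 and Slc25a29, a mitochondrial carrier of basic amino acids, by 0.88 on the log2 scale. The remaining lower gene was Tmlhe (-0.42), named after its value was seen, which encodes the enzyme that begins carnitine synthesis.

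Malonyl-CoA inhibits CPT1, and both the enzyme that makes it at the mitochondrion and the one that removes it were lower. Acacb (acetyl-CoA carboxylase 2) fell from 51.8 ± 1.33 to 29.8 ± 4.59 FPKM (log2 fold change -0.79, limma adjusted p 0.0038). Mlycd (malonyl-CoA decarboxylase) fell from 49.5 ± 5.96 to 29.5 ± 3.07 FPKM (-0.73, adjusted p 0.0051). Of the AMPK subunits, Prkab1 fell from 11.5 ± 0.30 to 6.33 ± 0.34 FPKM (-0.77) and Prkab2 rose from 11.2 ± 2.34 to 17.1 ± 3.06 FPKM (0.57). In all, 4 of the 10 genes of this list were lower (the remaining one, named after its value was seen, was Prkag1 at -0.33) and 1 was higher.

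**Figure D4:**
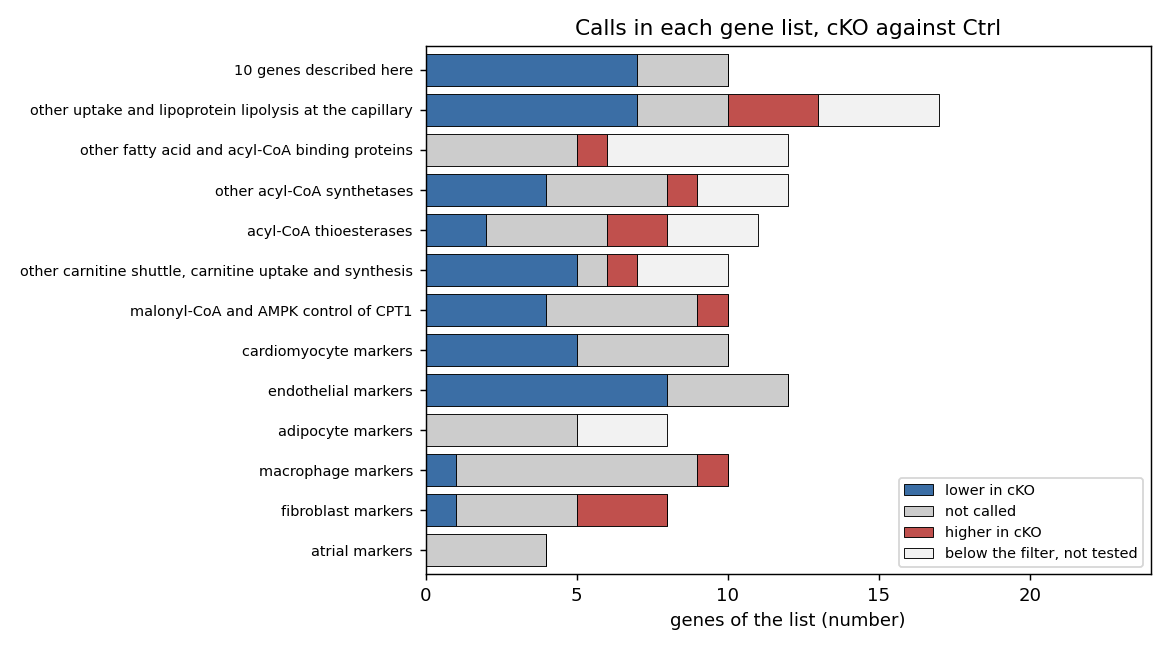
Number of genes (x axis) that were lower in cKO (blue), not called (grey), higher in cKO (red) or below the filter (white) in the 10 genes described, the 6 lists of other pathway genes and the 6 lists of cell type markers. Lower genes are the larger part of the calls among the 10 genes (7 lower, 0 higher) and at the capillary (7 and 3). The same holds for carnitine genes (5 and 1), other acyl-CoA synthetases (4 and 1) and the malonyl-CoA and AMPK list (4 and 1). It also holds for endothelial (8 and 0) and cardiomyocyte markers (5 and 0). Thioesterases (2 and 2) and macrophage markers (1 and 1) are even, and binding proteins (0 and 1) and fibroblast markers (1 and 3) go the other way. Over all genes tested, 17.0% were lower and 16.3% higher.

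Many markers of 2 cell types that express these genes were lower as well. In bulk tissue, fewer cells of a type and less RNA per cell cannot be told apart. Over all genes tested, 17.0% were lower and 16.3% higher. Of 12 endothelial markers, 8 were lower and none higher, and their summed level was 342 to 386 FPKM in Ctrl and 237 to 270.3 FPKM in cKO. None of the 12 was at 0. Per summed endothelial marker, Cd36 was at 95.3% of its Ctrl value, Fabp5 at 99.2% and Fabp4 at 76.1%, and in each the hearts of the groups overlapped. Of 10 cardiomyocyte markers, 5 were lower and none higher, with sums of 13716 to 16209 FPKM in Ctrl and 8567 to 12500 FPKM in cKO. Single cardiomyocyte markers ranged from 37.3% (Pln) to 93.3% (Actn2) of the Ctrl mean. Per summed cardiomyocyte marker, Crat was at 102%, Cpt2 at 92.4% and Slc27a1 at 83.8% of Ctrl, with overlap between the groups, and Acsl1 was at 83.4% without overlap. On this scale Cd36 was at 96.0% and Fabp5 at 97.8% with overlap, and Fabp4 was at 76.6% without overlap. Fabp3 was at 148% of Ctrl on either scale, with every cKO heart above every Ctrl heart. The same held for Cpt1a per endothelial marker (133%) and for Cpt1b per cardiomyocyte marker (116%), whereas on the other scale both genes overlapped between the groups (133% and 119.6%). The sums are led by their most abundant genes, and the part of the marker changes in the results was not tested.

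Few markers of fat cells, macrophages and fibroblasts were called lower. Of 8 adipocyte markers, 5 were tested and none passed, with sums of 27.7 to 51.0 FPKM in Ctrl and 30.9 to 45.9 FPKM in cKO. Cidea led these sums, at 24.5 ± 2.58 FPKM in Ctrl and 29.9 ± 3.99 FPKM in cKO. Adipoq, Plin1, Cidec, Cfd and Retn had cKO means at 44.5% to 57.0% of Ctrl and Ucp1 at 153%, with overlap between the groups. Lep was near 0. Adipoq, the defining marker, had means of 1.54 ± 1.69 and 0.84 ± 0.75 FPKM. Within the groups it was highest in Ctrl replicate 1 and cKO replicate 3. Of 10 macrophage markers, 1 was lower (Csf1r) and 1 higher (Fcgr1), with sums of 312 to 430 and 249 to 370.4 FPKM. Over all genes tested 17.0% were lower and 16.3% higher, so that these 2 calls are near the background. Of 8 fibroblast markers, 1 was lower (Dcn) and 3 were higher (Col1a1, Col3a1 and Postn), with sums of 162 to 189 and 163 to 195 FPKM. Csf1r kept its call in 13, Dcn in 14 and Col1a1 in 10 of the 15 alternatives. The 4 atrial markers did not pass. Their sum was 2052, 289 and 128 FPKM in the Ctrl hearts and 575, 1348 and 1652 FPKM in the cKO hearts. On this sum the Ctrl hearts other than replicate 1 were below all cKO hearts. Nppa made up most of it in the cKO hearts, at 469, 1127 and 938 FPKM. The study uses Nppa as a marker of hypertrophy and reports it as raised in cKO hearts, so that it does not mark atrial tissue alone. The other atrial markers did not separate the hearts in this way. Myl7 was at 98.6 FPKM in Ctrl replicate 2 and 71.8 FPKM in cKO replicate 1, Myl4 at 16.7 and 12.7, and Sln at 29.7 and 20.9. The sum, Myl7, Myl4 and Sln were all highest in Ctrl replicate 1. Of the 10 genes, Slc27a1, Acsl1, Crat, Fabp5, Cpt1a and Cpt1b were also highest in Ctrl replicate 1. The part of atrial tissue in the results was not tested, and without Ctrl replicate 1 Slc27a1 (-0.60), Acsl1 (-0.72) and Crat (-0.46) remained lower past the threshold whereas Fabp5 did not.

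The deposited values themselves set the precision. The 6 libraries held 15989322 to 24875499 reads. Mrps5 was at 5.20, 6.45 and 6.33 FPKM in Ctrl, against 1.12, 1.23 and 1.31 in cKO, which fits the labels. In cKO replicate 2 the Y-linked gene Ddx3y was at 0 and Xist at 10.7 FPKM. In the other 5 hearts Ddx3y was at 12.7 to 17.7 FPKM, so that this mouse differed from the others in sex. The study reports using male mice alone, with which these values conflict. Without cKO replicate 2, Cd36 (log2 fold change -0.49), Fabp4 (-0.82), Fabp5 (-0.44), Acsl1 (-0.81), Slc27a1 (-0.80), Cpt2 (-0.59) and Crat (-0.46) remained lower past the threshold. Scaling each library to its recovered read total, in place of the scaling in the deposited values, shifted the all-gene median from -0.02 to 0.09 on the log2 scale. The split of calls then became 1381 lower and 3274 higher, against 2205 and 2110. With that scaling 6 of the 7 genes kept their call, at -0.33 (Crat) to -0.76 (Fabp4), and Fabp5 did not (-0.36, adjusted p 0.0540). Scaling without the genes of mitochondrial DNA gave 1621 lower and 2649 higher genes.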

How the data were processed

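RNA of 6 hearts was sequenced after poly-A selection as paired ends. Per the labels, the authors aligned reads with HISAT2 2.0.5, counted them per gene with featureCounts 1.5.0-p3 and tested counts with DESeq2 1.16.1 (the methods name another version of DESeq2). The authors computed the deposited FPKM from the count and a gene length, which is deposited as an other, gene-level value. Multiple alignments and strand are not given in the sources used here. The labels name mm9, but of 54409 identifiers shared with GENCODE M21 (GRCm38) 53499 had identical start and end.

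FPKM times length gave whole reads for 100% of values (tolerance 0.01 read). The library size implied by the deposited values was 0.913 to 0.980 times the read total in Ctrl and 1.06 times in cKO. The scale was log2(FPKM + 1), on which changes of low genes come out too small. The 12944 genes whose mean reached 0.5 FPKM were tested with limma 3.58.1 in R 4.3.3 (eBayes with trend, two-sided, no covariates, as in the authors' 2-group design) and Benjamini-Hochberg adjustment over all genes tested. Shares and ratios were compared by exact permutation. Errors given as ± are SD over 3 hearts. The fit was also run on simulated tables in which 200 genes were changed, far fewer than were called here. These tables held no difference in library scaling between the groups, so that they do not test its effect.

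The 10 genes, the lists, the tests and the markers were chosen with earlier results of these data known. Of the other lists, the genes named were at most the 4 with the largest change per list among the called genes that reached 1 FPKM in either group, and Slc25a20, Slc22a5, Lpl, Acacb and Mlycd in any case. Group and replicate number came from the sample titles. The main fit treated the hearts as unpaired. The alternatives tried were 0.1 as pseudocount, a filter at 1 FPKM or none, 3 other scalings, no trend, voom on the recovered reads, each heart left out and a replicate block. The length of the principal transcript and the scaling to read totals were added after seeing the data.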

Additional observations from a re-analysis of the deposited data

How the results depend on the processing

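Each of the 10 genes was fitted under 15 alternatives, and of the 150 values 142 kept the direction and the side of the threshold. Cd36, Slc27a1, Fabp4, Acsl1, Cpt2 and Crat were lower past the threshold in all 15, and none of the 10 genes was higher in any. Fabp5 lost its call in 4, named beside its values. The direction turned for Fabp3 without Ctrl replicate 3 (-0.019) and for Cpt1a without Ctrl replicate 1 (0.00080) and with scaling to the read totals (0.042), none of them past the threshold. With a heart left out, the log2 fold change of Fabp3 lay between -0.019 and 0.104 and that of Cpt1a between -0.187 and 0.00080. For Fabp3, scaling to the read totals gave 0.199 (limma adjusted p 0.0912) and scaling without the genes of mitochondrial DNA gave 0.137 (0.235). The number of the 10 genes that were lower lay between 6 and 8 with a heart left out. Of the other pathway genes, 16 to 21 were lower and 4 to 9 higher with a heart left out, and scaling to the read totals raised the number of higher genes from 9 to 15. Without Ctrl replicates 1, 2 and 3 they were 5, 4 and 4, where fewer samples were fitted.

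Same-numbered hearts did not deviate together (correlations of -0.0554, 0.175 and -0.0148), so that the numbers do not pair the hearts. With the replicate block 7 of the 10 genes were lower and 0 higher, as without it, and of the other pathway genes 21 were lower and 10 higher. Fabp5 and Cpt1b rest on the fewest reads of the 10 genes, 407 to 952 and 132 to 247 per heart.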
